A study of Mus musculus with 69 samples.

Results

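The comparison described here is that of 2 ages, P22 and P66 (postnatal days 22 and 66), in the hippocampus of male mice that lack Cdh13 and were separated from the dam as pups. All animals that the labels place in these 2 groups were used, 10 at P22 and 7 at P66, which made 17 of the 69 libraries of the series. Each library came from 1 animal. Both groups carried the Cdh13 knockout genotype, and both came from litters taken from the dam for 3 h a day on P1 to P14. The comparison thus holds genotype and separation constant while age differs, and with it the split of cohorts given below. P22 was the day of weaning; the older animals were then kept without further intervention until P66. The hippocampus was cut from frozen brain slices by eye against an atlas, so neighbouring tissue could be included. The other 52 libraries, used only to set the age effect beside that of other animals, were control knockout (9 at P22, 7 at P66), separated wildtype (11 and 10) and control wildtype (8 and 7) animals, where control litters were handled but not separated. Animals of each group came from 2 rounds of breeding, called cohorts in the labels. At P22 cohort 1 gave 2 animals and cohort 2 gave 8, while at P66 they gave 5 and 2, and cohort was therefore a term of the models unless stated otherwise. The labels name no litters, so p-values measure the spread between these animals and would be too small if littermates resemble each other. Cdh13 itself was not analysed here, and the genotype was taken from the labels without a check on its level.

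Cdh13 encodes T-cadherin, an adhesion molecule held on the outer cell surface by a lipid anchor. Between weaning and adulthood the mouse hippocampus passes from growth to maintenance: production of granule neurons in the dentate gyrus and of oligodendrocyte precursors slows, oligodendrocytes go from building myelin to keeping it, and vessels and their coverings finish growing. Separation from the dam is a stressor in early life that activates the glucocorticoid axis of the pups. In RNA of whole tissue, fewer cells of a type and less RNA per cell cannot be told apart.

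The libraries held 11.8 to 14.6 M counts at P22 (M, mega; median 13.6 M) and 12.4 to 16.4 M at P66 (median 14 M). Genes of the hippocampal fields were well expressed at both ages: median levels at P22 and P66 were 331 and 249 counts per M counts (CPM) for Prox1, a transcription factor of dentate granule neurons, and 285 and 283 CPM for the calcium-binding protein Calb1. In a principal component analysis of the 17 libraries the component that separated the ages was the second, with 21.9% of the variance. It ran from -1.68 to 15.46 at P22 and from -15.62 to -2.92 at P66, without overlap. The first component, with 24.2%, set 1 library apart, that of animal 56 of cohort 1 at P66 (C1-56, at 33.62 against -7.74 to 5.2 in the other 6 P66 libraries). In C1-56, Lcn2 was at 9.61 CPM against 0.233 to 0.783 CPM in the other P66 libraries, and Zfp992, 1 of a cluster of similar zinc finger genes, was at 2.31 CPM against 6.75 to 17.7 CPM. C1-56 lay above the other 6 P66 libraries in the mean level of 8 of 32 gene lists and below them in 8. Results that turn on this library are given with and without it. Choroid plexus tissue, which lies against the hippocampus, was present in varying amounts at both ages: the mean level of 11 tested choroid plexus genes was 1.61 to 5.27 log2 CPM at P22 and 1.90 to 5.36 at P66, and 0 of the 11 were called with age by edgeR, DESeq2 or limma-voom, with 0 at an unadjusted p under 0.05. All 11 nonetheless had a positive value in the fit with a cohort term, with a median log2 fold change of 0.33 (0.18 and 0.59 within cohorts 1 and 2). The median level of the list itself was lower at P66 (2.92 log2 CPM) than at P22 (3.43). The 11 genes mark 1 tissue, so their shared sign is not 11 separate observations. The part of this tissue in other results was not tested beyond a fit with its level as a covariate, which called 718 genes.

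Of 6945 genes tested, 685 (9.86%) differed between P22 and P66 at a Benjamini-Hochberg adjusted p under 0.05 in edgeR's quasi-likelihood test. They were 260 genes that were higher at P66 (3.74%) and 425 that were lower (6.12%). The shares of 3.74% and 6.12% are the background for the list counts below. Among changes of at least 2-fold the lean was steeper, with 6 genes higher (0.0864%) and 66 lower (0.950%). For 75 genes (1.08%) every P66 library lay above every P22 library, and for 123 genes (1.77%) every P66 library lay below. The median log2 fold change over all genes tested was 0.02. An unadjusted p under 0.05 was found in 1563 genes, against 347 expected without any effect. The number called moved with single animals: it was 394 without animal 61 and 435 without animal 52 of cohort 1 at P22, 400 without animal 84 of cohort 2 at P66, and 865 without C1-56. In fits of 1 cohort alone 147 genes were called in cohort 1 and 67 in cohort 2. All 683 called genes tested in cohort 1 and all 685 in cohort 2 had the sign of the pooled value; these are the same libraries, so the signs are a description and not a second test.

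**Figure D1:**
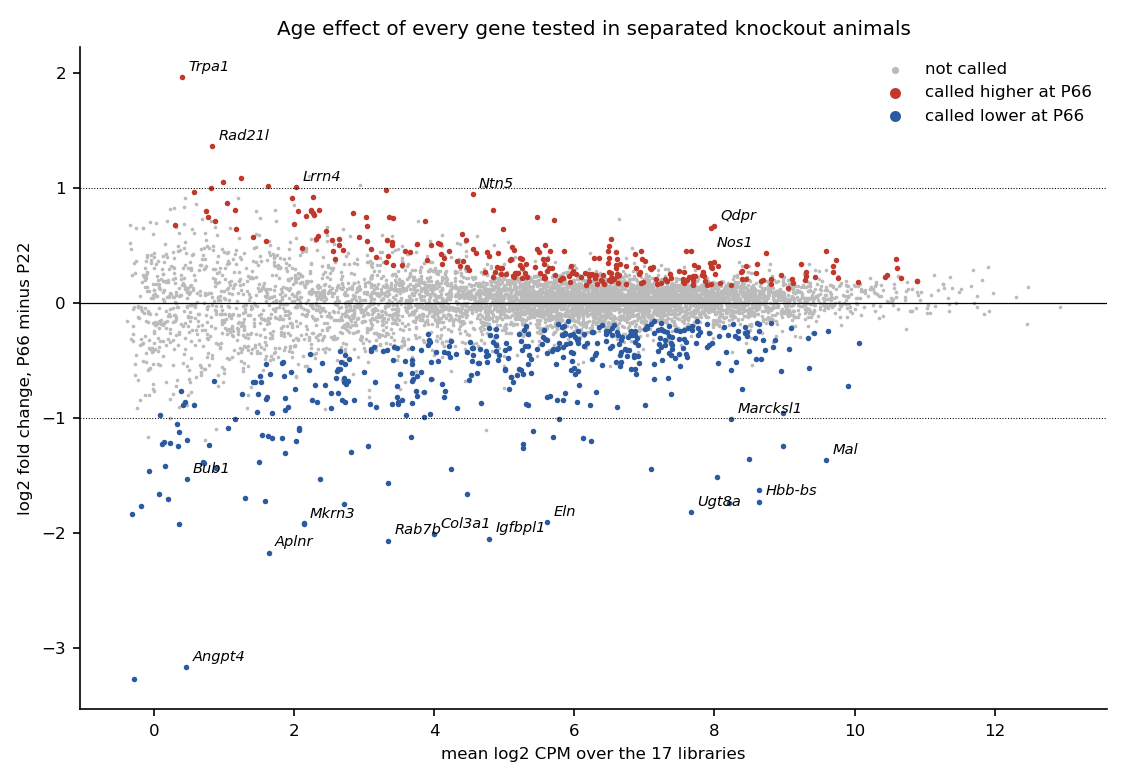
Log2 fold change from P22 to P66 (vertical) against mean log2 CPM over the 17 separated knockout libraries (horizontal) for the 6945 genes tested, with genes called higher in red, genes called lower in blue and dotted lines at 2-fold. The largest changes are falls, down to -3.17 for Angpt4 among named genes, while the rises end at 1.96 for Trpa1.

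Of 21 tested genes of the newborn neuron list 8 fell and 0 rose, with a median log2 fold change of -0.21 over the list (-0.21 within cohort 1 and -0.33 within cohort 2). Igfbpl1 (chr4:45809468-45826923 on GRCm38), a secreted protein related to the insulin-like growth factor binding proteins, was at 30.5, 38.5 and 51.8 CPM at P22 (lowest, median and highest library) and at 7.41, 10.2 and 14 CPM at P66. The groups lay far apart, and the fold change was -2.05 ± 0.136 on the log2 scale (SE, 10 P22 against 7 P66 animals; adjusted p = 5.83e-08), or 4.15-fold lower. Draxin (chr4:148098437-148130698), a secreted axon guidance molecule, was at 10.8, 13.3 and 16.9 CPM at P22 and 4.01, 4.96 and 6.28 CPM at P66, again without overlap (-1.57 ± 0.132, adjusted p = 4.88e-07). The actin regulator Marcksl1 was much more abundant, at 317 to 429 CPM at P22 and 161 to 213 CPM at P66, and fell by 1.01. Dpysl5, a collapsin response mediator of growing axons, fell by 0.89, the proneural factor Neurog2 by 0.91, the actin-binding peptide gene Tmsb10 by 0.79, the guidance molecule Sema3c by 0.78 and the granule neuron factor Neurod1 by 0.40. The other 13 genes did not pass, with values from -0.27 for Klhl35 to 0.19 for Elavl2, among them -0.01 for Nhlh1, -0.20 for Stmn2 (adjusted p = 0.0688) and 0.14 for Neurod6 (adjusted p = 0.493). The mean level of the list lay between 6.02 and 6.21 log2 CPM at P22 and between 5.52 and 5.79 at P66. No library of either age reached the other, whichever cohort it came from.

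Of 15 tested neural stem cell genes 6 fell and 0 rose (median -0.14; -0.31 and -0.25 within cohorts 1 and 2). Prom1, which encodes the membrane protein prominin, fell most, from 56.6, 69.2 and 85.3 CPM at P22 to 37.0, 38.3 and 42.1 CPM at P66 (-0.85 ± 0.0934, adjusted p = 1.13e-05), with no overlap. The others were the matrix protein Tnc (-0.61), the Notch-modifying enzyme Lfng (-0.53), the differentiation inhibitors Id3 (-0.52) and Id1 (-0.45), and the intermediate filament Nes (-0.28), which was called in 8 of the 17 fits that each left out 1 library. The other 9 genes did not pass, with values from -0.58 for Veph1 (adjusted p = 0.0900) to 0.20 for the transcription factor Pax6 (adjusted p = 0.167), among them the filament gene Vim at -0.14, the Notch target Hes5 at 0.03 and Sox2 at 0.09.

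Of 62 tested cell cycle genes 19 fell and 2 rose, with a median of -0.30 (-0.32 and -0.29 within cohorts 1 and 2). The falls were led by genes of mitosis. The spindle checkpoint kinase Bub1 (chr2:127801122-127831865) was at 0.990, 1.81 and 2.02 CPM at P22 and at 0.329, 0.620 and 0.925 CPM at P66, without overlap (-1.54 ± 0.251, adjusted p = 0.000622). The kinetochore gene Spc25 changed by -1.39, the spindle protein gene Ckap2 by -1.31, the ubiquitin-conjugating enzyme gene Ube2c by -1.09 and the mitotic entry factor gene Cdca3 by -0.93. Mki67, the standard marker of dividing cells, was at 7.51, 10.9 and 14 CPM at P22 and 2.97, 3.70 and 7.55 CPM at P66 (-1.24 ± 0.205, adjusted p = 0.000662); the highest P66 library just reached the lowest P22 library. The exceptions in the list were the condensin subunit Smc2 (0.64, adjusted p = 0.0483) and the G1 cyclin Ccne1 (0.30, adjusted p = 0.0145), which rose. The replication gene Mcm2, a member of the stem cell and cell cycle lists, had a median of 12.3 CPM at both ages (adjusted p = 0.869). Neither rise was called without animal 52 or animal 61 of cohort 1 at P22. The number of falls was 12 without animal 84 of cohort 2 at P66 and 24 without C1-56. The mean level of the list did not overlap between the ages (3.20 to 3.36 against 2.79 to 3.06 log2 CPM).

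**Figure D2:**
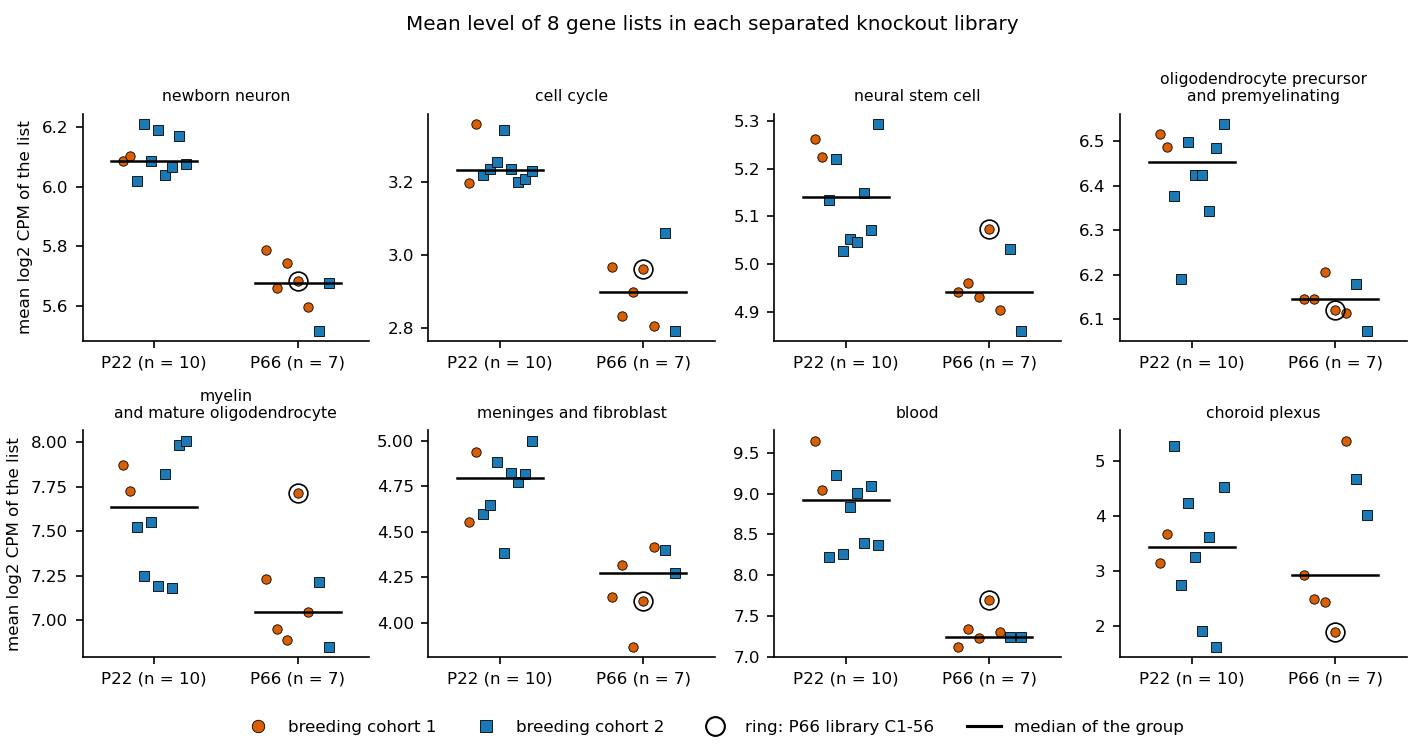
Mean log2 CPM of 8 gene lists in each separated knockout library at P22 and P66, coloured by breeding cohort, with the median of each group as a line and library C1-56 ringed. The newborn neuron, cell cycle and blood lists separate the ages completely, the myelin list overlaps, with C1-56 (7.72) the highest of 3 P66 libraries that reach the P22 range, and the choroid plexus list overlaps throughout.

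Promoters of the 3 cell cycle genes with the largest falls are printed to show the elements by which many mitotic genes are known to be controlled together, the CCAAT box bound by NF-Y and the cell cycle gene homology region TTTGAA. The sequences are the 250 bases before the transcript start from RefSeq (GRCm38.p6), 5′ to 3′ on the gene's strand, which is the minus strand for all 3, with matches in capitals; CCAAT on the other strand reads ATTGG. They lie at chr2:127831860-127832109 (Bub1), chr2:69206214-69206463 (Spc25) and chr8:22185820-22186069 (Ckap2).
Bub1: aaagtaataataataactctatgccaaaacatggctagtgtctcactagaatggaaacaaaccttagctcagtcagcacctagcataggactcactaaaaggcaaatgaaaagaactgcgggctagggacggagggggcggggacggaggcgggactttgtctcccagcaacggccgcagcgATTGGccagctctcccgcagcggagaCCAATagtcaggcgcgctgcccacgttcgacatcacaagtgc
Spc25: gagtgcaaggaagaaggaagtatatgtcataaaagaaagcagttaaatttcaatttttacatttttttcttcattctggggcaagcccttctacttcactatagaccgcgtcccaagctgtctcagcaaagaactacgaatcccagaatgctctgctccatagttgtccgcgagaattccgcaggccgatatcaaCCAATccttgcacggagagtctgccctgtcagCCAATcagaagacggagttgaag
Ckap2: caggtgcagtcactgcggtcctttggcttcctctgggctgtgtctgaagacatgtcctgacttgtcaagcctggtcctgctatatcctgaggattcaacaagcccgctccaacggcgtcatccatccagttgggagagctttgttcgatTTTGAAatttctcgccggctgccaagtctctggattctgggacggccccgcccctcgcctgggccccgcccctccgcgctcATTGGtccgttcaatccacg
CCAAT was found in all 3, 2 times each in Bub1 and Spc25, and TTTGAA in Ckap2. Both strands were searched for each motif, neither motif contains the other, and a promoter was held for 18 of the 19 cell cycle genes that fell. Of these 18, 12 (66.7%) held CCAAT, 7 (38.9%) held TTTGAA and 6 (33.3%) held both. Among 35 other tested cell cycle genes the shares were 60.0%, 17.1% and 17.1%, and among 5713 tested genes with a promoter 35%, 11.4% and 4.7%. These are letter matches, given as a description.

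Myelin genes were lower at P66, but not all of them. Of 18 tested genes of the myelin and mature oligodendrocyte list 8 fell and 1 rose (median -0.59; -0.63 and -0.57 within cohorts 1 and 2). Ugt8a (chr3:125865271-125938619), the enzyme that makes the myelin lipid galactosylceramide, was at 155, 289 and 409 CPM at P22 and 71.5, 86.5 and 105 CPM at P66. All P66 libraries lay below all P22 libraries, and the fold change was -1.82 ± 0.205 (adjusted p = 1.43e-05). The tight junction protein Cldn11 (chr3:31149920-31164324) was at 340, 539 and 783 CPM at P22 and 129, 174 and 365 CPM at P66; C1-56 alone, at 365 CPM, reached the P22 range. Its fold change was -1.63 ± 0.249 (adjusted p = 0.000353), and -1.77 without C1-56. Myelin-associated glycoprotein, Mag, changed by -1.25 ± 0.258 (adjusted p = 0.00406) and by -1.39 without C1-56, where it stood at 559 CPM against at most 330 CPM in the other P66 libraries. The actin-severing protein Gsn fell by 1.52, the myelin proteolipid Mal by 1.37, the tetraspanin Tspan2 by 1.36, the deacetylase Sirt2 by 0.96 and the connexin Gjc3 by 0.62.

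Against these falls Qdpr (chr5:45434021-45450236), which regenerates tetrahydrobiopterin and is abundant in mature oligodendrocytes, rose from 163, 202 and 240 CPM to 273, 294 and 492.9 CPM, with every P66 library above every P22 library (0.67 ± 0.136, adjusted p = 0.00393). Hapln2, a link protein of the matrix at nodes of Ranvier, was at 0.58 (adjusted p = 0.0902) and carbonic anhydrase Car2 at 0.32 (adjusted p = 0.0677); neither passed. Of 10 tested precursor and premyelinating genes 5 fell and 0 rose (median -0.36; -0.48 and -0.24 within cohorts 1 and 2). The sialidase Neu4 was the clearest, at 38.9, 48.4 and 53.7 CPM at P22 and 21.9, 27.5 and 34.8 CPM at P66, with no overlap (-0.88 ± 0.0779, adjusted p = 9.06e-07). The transcription factor Nkx2-2 fell by 0.64, Bcas1, a marker of oligodendrocytes that are starting to myelinate, by 0.59 (called in 8 of the 17 fits with 1 library left out), the calcium release channel Itpr2 by 0.36 and the growth factor receptor Pdgfra by 0.36. Without animal 61 of cohort 1 at P22, 3 of the precursor genes were called. Cholesterol synthesis, on which myelin growth draws, had 3 of 11 tested genes lower and 0 higher (median -0.22). Among them Cyp51 fell from 166 to 236 CPM at P22 to 134 to 151 CPM at P66 (-0.48 ± 0.0721, adjusted p = 0.000295) and Dhcr7, an enzyme of the last steps, fell by 0.28. That count was 1 without animal 52 of cohort 1 at P22 or animal 84 of cohort 2 at P66, and 5 without animal 63 of cohort 2 at P22. Adamts4, a matrix protease of oligodendrocytes, fell by 1.2 ± 0.222 (adjusted p = 0.00174).

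**Figure D3:**
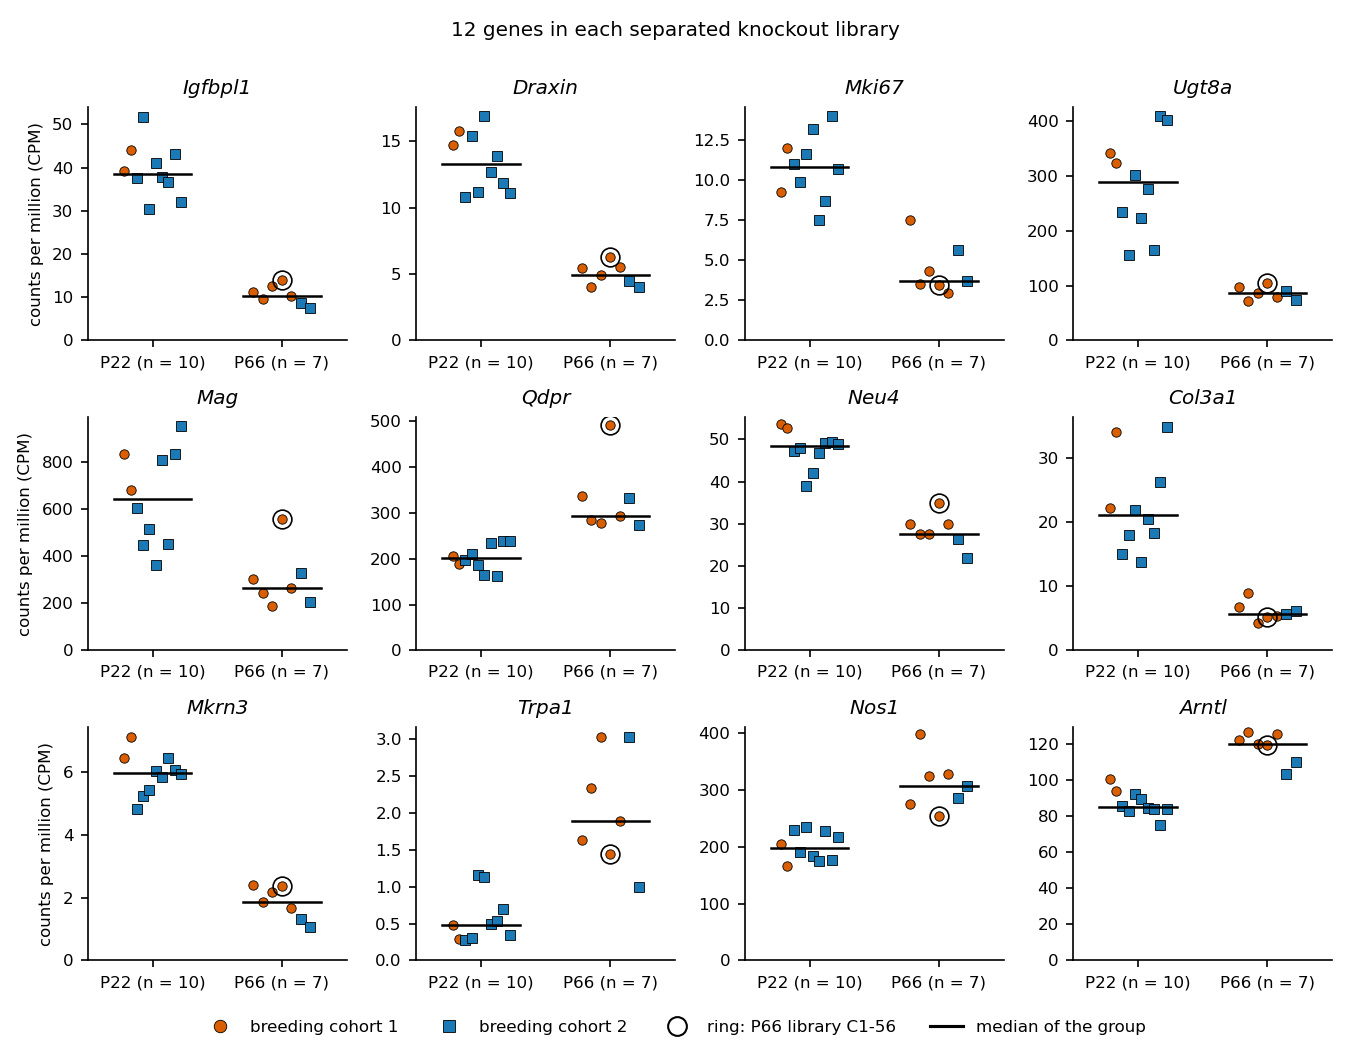
CPM of 12 genes in each separated knockout library at P22 and P66, coloured by breeding cohort, with group medians as lines and C1-56 ringed. Igfbpl1, Draxin, Ugt8a, Neu4, Col3a1 and Mkrn3 drop without overlap, Qdpr, Nos1 and Arntl rise without overlap, and in Mag and Qdpr the library C1-56 stands above the other P66 libraries.

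Several connective tissue genes and the 2 tested blood genes were lower at P66. Of 15 tested meningeal and fibroblast genes 5 fell and 0 rose (median -0.37; -0.39 and -0.33 within cohorts 1 and 2). The fibrillar collagen Col3a1 (chr1:45311538-45349706) was at 13.9, 21.2 and 34.9 CPM at P22 and 4.34, 5.66 and 9.0 CPM at P66, without overlap (-2.02 ± 0.219, adjusted p = 1.08e-05). Its partner collagen Col1a2 fell by 1.27, the calcification inhibitor Mgp by 0.87, fibronectin, Fn1, by 0.67 and the complement C1 inhibitor Serping1 by 0.43. The other 10 genes of the list did not pass, and the highest value in the list was 0.15. Elastin, Eln (chr5:134702593-134747323), the protein that makes arteries elastic, was at 45.8, 59.4 and 130 CPM at P22 and 15.9, 22.4 and 23.6 CPM at P66 (-1.91 ± 0.175, adjusted p = 1.36e-06). The highest P22 value of Eln, 130 CPM in animal 61 of cohort 1, stood apart from the next, 81.6 CPM. Without that animal 3 meningeal genes were called.

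The only tested blood genes were the adult beta globins Hbb-bs and Hbb-bt, near-identical neighbours on chromosome 7 between which reads may have been split, and both fell. Hbb-bs was at 344, 562 and 928 CPM at P22 and 162, 179 and 241 CPM at P66 (-1.73 ± 0.180, adjusted p = 6.22e-06), with no overlap. Of 23 tested endothelial and mural genes 6 fell and 1 rose (median -0.14; -0.39 within cohort 1 and -0.03 within cohort 2). Mfsd2a, the lipid transporter of the blood-brain barrier, fell by 0.86 ± 0.130 (adjusted p = 0.000311), von Willebrand factor, Vwf, by 0.75 (-1.14 and -0.43 within the cohorts), the peptidase Anpep by 0.42, endoglin, Eng, by 0.39, the glucose transporter Slc2a1 by 0.39 (called in 6 of the 17 fits with 1 library left out) and the lactate transporter Slc16a1 by 0.32, while the growth factor receptor Flt1 rose by 0.26. These falls were fewer without single animals: 2 without animal 61 and 3 without animal 52 of cohort 1 at P22, and 3 without animal 53 of cohort 2 at P66. Of 21 tested microglia and macrophage genes 3 fell and 1 rose, with a median of 0.02. The haemoglobin scavenger receptor Cd163 changed by -1.15 ± 0.228 (adjusted p = 0.00314) and the mannose receptor Mrc1 by -0.71. Fcrls changed by -0.36. The protease Ctss rose by 0.24 and was called in 5 of the 17 fits with 1 library left out.

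Several of the largest falls were in genes outside these groups. Angpt4 (chr2:151911210-151945337), a ligand of the vascular receptor Tie2, fell most of all named genes, from 0.907, 1.89 and 2.91 CPM to 0.0774, 0.185 and 0.508 CPM (-3.17 ± 0.349, adjusted p = 1.13e-05). These P66 levels are a few counts per library. Aplnr, the receptor of the vascular peptide apelin, fell by 2.17 ± 0.304 (adjusted p = 0.000153), with a slight overlap of the groups. Rab7b (chr1:131688695-131715439), a small GTPase of late endosomes, was at 8.67, 14.8 and 20.7 CPM at P22 and 2.79, 3.27 and 6.21 CPM at P66, without overlap (-2.07 ± 0.236, adjusted p = 1.72e-05). Mkrn3 (chr7:62417593-62420139), a paternally expressed ubiquitin ligase that acts as a brake on puberty, was at 4.82, 5.98 and 7.14 CPM at P22 and 1.07, 1.85 and 2.42 CPM at P66. Its groups lay apart in both cohorts (-1.93 ± 0.139, adjusted p = 1.23e-07; -1.72 in cohort 1 and -2.26 in cohort 2). Peg12, its imprinted neighbour on chromosome 7, fell by 1.46 (adjusted p = 0.00487), but other imprinted genes of that cluster did not pass: Ndn was at 0.06 (adjusted p = 0.737) and Magel2 at 0.08 (adjusted p = 0.920). Over 32 tested imprinted genes 3 fell, 1 rose and the median was -0.10, against 6.12% lower and 3.74% higher over all genes tested. Others among the largest falls, all at low levels, were the calcium channel Trpv6 (-1.91), the serine protease Prss8 (-1.93) and the transporter Slc45a3 (-1.75). The inner ear protein Otoa (-1.71) and the osteocalcin-like Bglap3 (-1.72) were also among them. Prss8 was called in 12 and Bglap3 in 15 of the 17 fits that each left out 1 library. Trpv6, Slc45a3 and Otoa were called in all 17.

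The largest rises were in genes at low levels. Trpa1 (chr1:14872648-14918862), a cation channel opened by irritants, was at 0.272, 0.485 and 1.15 CPM at P22 and 0.988, 1.89 and 3.02 CPM at P66 (1.96 ± 0.360, adjusted p = 0.00169); all 7 P66 libraries lay above the P22 median, with some overlap of the groups. The meiotic cohesin subunit Rad21l rose by 1.36, Otos by 1.09, the kinase Tnni3k by 1.05, BC035947 by 1.02, the leucine-rich repeat protein Lrrn4 by 1.00, the methyltransferase Inmt by 0.99 and Adamtsl4 by 0.98. The opticin gene Optc rose by 0.97, the netrin Ntn5 by 0.94, Acp7 by 0.91, Gm5105 by 0.86 and Pgpep1l by 0.80. Tnni3k was still called in 4 and Acp7 in 6 of 17 fits that each left out 1 library; Lrrn4, Trpa1, C1ra and Nos1 were called in all of them. The complement protease C1ra (chr6:124512405-124523443) was at 2.41, 3.26 and 4.45 CPM at P22 and 5.35, 6.34 and 8.45 CPM at P66, without overlap (0.92 ± 0.154, adjusted p = 0.000780), and its near-identical neighbour C1rb, with which it may share reads, rose by 0.80. In the list of 30 antigen presentation, complement and interferon genes 2 rose and 1 fell, with a median of 0.05. The shares over all genes tested were 3.74% higher and 6.12% lower. The rises were C1ra and the guanylate-binding protein Gbp4 (0.80), and the fall was Serping1. Gbp4 and Serping1 were not called without animal 53 or animal 84 of cohort 2 at P66, nor Serping1 without animal 52 or 61 of cohort 1 at P22.

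Among neuronal genes at higher levels, rises were small. Of 35 tested potassium and sodium channel genes 2 rose and 0 fell (median 0.02). Over all genes tested 3.74% were called higher and 6.12% lower. The A-type potassium channel subunit Kcnd3 rose by 0.31 ± 0.0841 (adjusted p = 0.0224), but was not called without animal 52 or 61 of cohort 1 at P22 or animal 84 of cohort 2 at P66. Nos1 (chr5:117781032-117958840), neuronal nitric oxide synthase, a marker of a set of interneurons, rose from 166, 198 and 236 CPM to 255, 307 and 400 CPM (0.64 ± 0.108, adjusted p = 0.000769). Of 21 tested interneuron genes it was the only rise, and 1 fell, Sox6 (-0.33), which was called in 8 of the 17 fits with 1 library left out. Acvr1c, an activin receptor chosen after its values were seen, rose by 0.80 (adjusted p = 0.0158). Of 7 P66 libraries 6 lay above the P22 median, and C1-56, at 14.5 CPM against 30.3 to 45.3 CPM in the others, did not. The P22 libraries reached 33.8 CPM, so the groups overlapped also without C1-56.

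Of 12 tested ionotropic glutamate receptor and auxiliary subunit genes and of 10 GABA receptor and chloride transporter genes, 0 were called by edgeR. At an unadjusted p under 0.05 there were 3 and 1, DESeq2 called 2 and 0, and limma-voom called 0 and 0. The members with the smallest p were Grik3 (-0.25, adjusted p = 0.0712) and Grin2d (-0.19, adjusted p = 0.0970) among the glutamate receptors, and Gabbr2 (0.14, adjusted p = 0.114) and the chloride extruder Slc12a5 (0.11, adjusted p = 0.280) in the GABA list. Of the glutamate receptor genes 2 were called lower without C1-56. Of 29 presynaptic release genes 3 fell: Slc17a6, the vesicular glutamate transporter of thalamic and other subcortical neurons (-1.02), Rims4 (-0.39) and the syntaxin Stx1a (-0.29, called in 9 of the 17 fits with 1 library left out). None of the 29 rose with all libraries, but 3 were called higher without C1-56 and 2 without animal 92 of cohort 2 at P22. Slc17a6 ranged from 26.0 to 113 CPM at P22 and from 22.4 to 41.2 CPM at P66, and the other tested thalamic genes, apart from a rise of Ntng1 (0.45), did not pass. Of 15 tested genes of the dentate gyrus and CA fields 2 fell, among them Wfs1 (-0.75), of CA1 pyramidal neurons; 1 fell without animal 61 of cohort 1 at P22 or animal 53 of cohort 2 at P66, and 4 without animal 63 of cohort 2 at P22 or animal 54 of cohort 1 at P66. Among cadherins and catenins, the family of T-cadherin, 3 of 16 tested genes fell and 0 rose. These were Cdh20 (-0.53), the protocadherin-like Dchs1 (-0.30) and Ctnna2, the neuronal alpha-catenin (-0.25 ± 0.0470, adjusted p = 0.00240). All P66 libraries of Ctnna2 lay below its P22 libraries. The number of falls was 2 to 4 with 1 library left out. In 1 fit of all 69 libraries Ctnna2 was at -0.28, and at -0.24, -0.24 and -0.30 in control knockout, separated wildtype and control wildtype. In the same order Dchs1 was at -0.29, -0.40, -0.39 and -0.32, and Cdh20 at -0.46, -0.29, -0.12 and -0.31. Of 32 axon guidance genes 5 fell and 2 rose: besides Draxin and Sema3c these were Epha8 (-0.99), Sema3a (-0.88) and Sema4c (-0.41), against Ntng1 (0.45) and Ephb6 (0.27). Neither rise was called without animal 52 or 61 of cohort 1 at P22 or animal 84 of cohort 2 at P66.

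**Figure D4:**
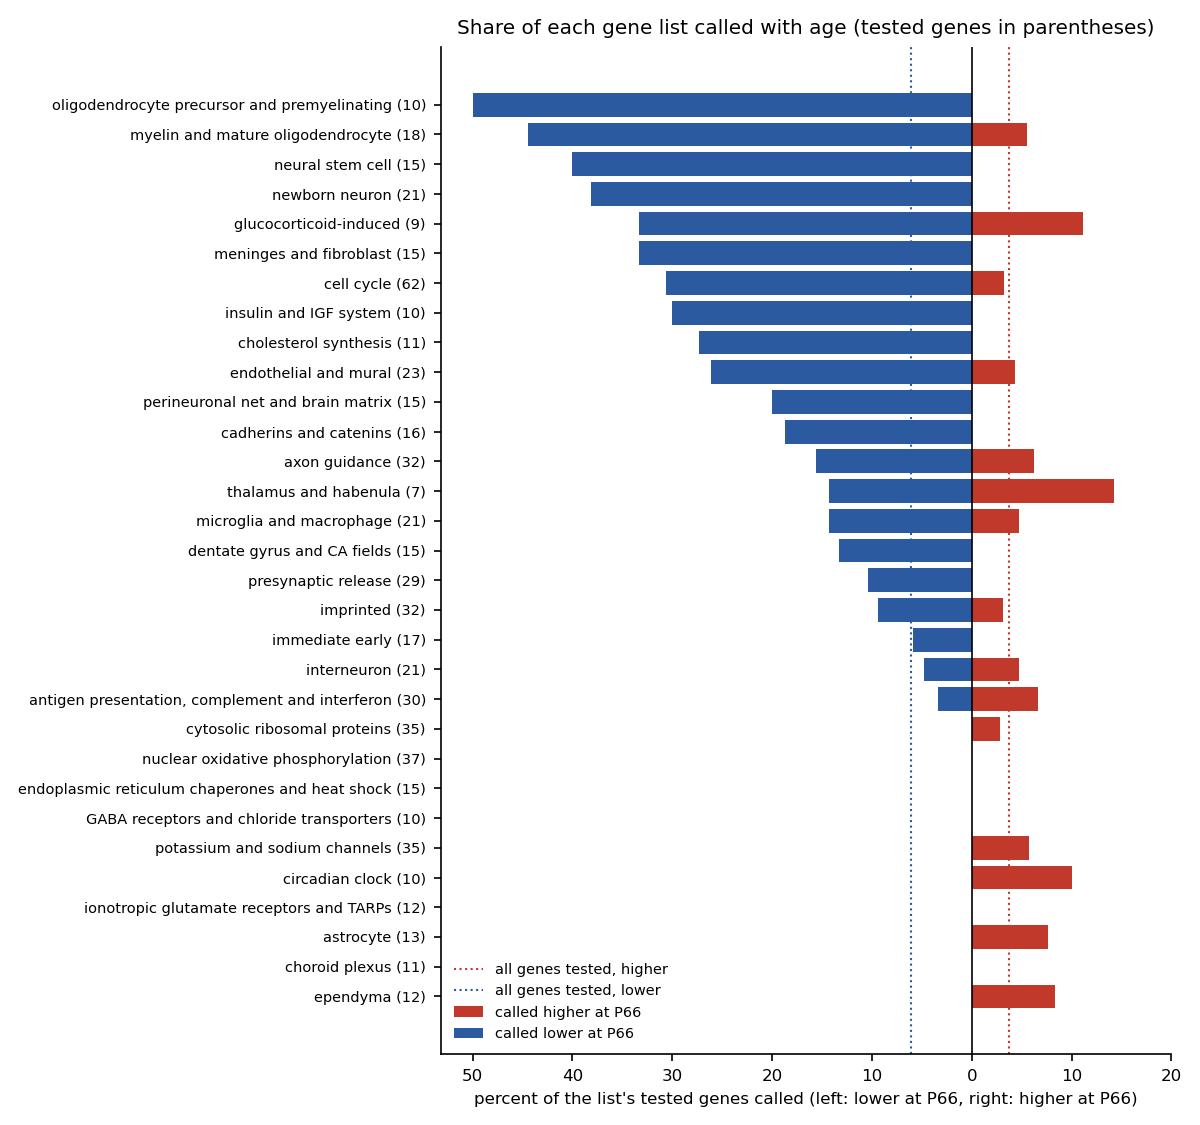
Percent of the tested genes of 31 gene lists called lower (blue, left) or higher (red, right) at P66 in separated knockout animals, with the number tested in parentheses and dotted lines at the shares over all genes tested (6.12% lower, 3.74% higher). The longest bars to the left are precursor, myelin, stem cell and newborn neuron lists, and GABA receptor, glutamate receptor, chaperone, choroid plexus and oxidative phosphorylation lists have no called gene.

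Genes induced by glucocorticoids gave 3 falls and 1 rise among 9 tested (median -0.22). Hif3a (chr7:17031507-17062427), a hypoxia-inducible factor that glucocorticoids induce, was at 13.3, 24.6 and 35.1 CPM at P22. At P66 it was at 6.10, 9.96 and 12.4 CPM, without overlap (-1.45 ± 0.228, adjusted p = 0.000499). In 1 fit of all 69 libraries Hif3a was at -1.39, and at -1.21, -0.89 and -1.32 in control knockout, separated wildtype and control wildtype. In the same order the median of the list was -0.21, -0.226, -0.085 and -0.233. The sulfotransferase Sult1a1 fell by 0.77 and the phagocytic receptor Mertk by 0.25 (called in 9 of the 17 fits with 1 library left out), whereas the pyruvate dehydrogenase kinase Pdk4 rose by 0.45; Pdk4 was not called without animal 52 or 61 of cohort 1 at P22 or animal 84 of cohort 2 at P66. Of 10 clock genes only Arntl, the core activator BMAL1, was called; it rose from 74.9, 85.1 and 101 CPM to 103, 120 and 127 CPM without overlap (0.33 ± 0.0492, adjusted p = 0.000230). Other clock genes had values of the other sign that did not pass, -0.34 for Per3 (adjusted p = 0.0849), -0.25 for Ciart (adjusted p = 0.196) and -0.28 for Dbp (adjusted p = 0.279), an output gene of the clock that was at -0.72 in cohort 1 alone and 0.07 in cohort 2 alone. The endoplasmic reticulum chaperones, which had been named for the whole series, were among 15 chaperone genes of which edgeR called 0 (1 at an unadjusted p under 0.05; 1 by DESeq2 and 1 by limma-voom, each higher): Hspa5 was at -0.30, Pdia4 at -0.22 and Pdia3 at -0.14, and the heat shock gene Hsph1 at 0.19 (adjusted p = 0.0508). The values of Hspa5 and Pdia4 lay near 0 in cohort 1 alone (0.04 for each) and were -0.64 and -0.49 in cohort 2 alone. Of 17 immediate early genes 1 fell, Plk3 (-0.53), called in 5 of the 17 fits with 1 library left out. That count is near the share called lower over all genes tested, 6.12%.

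Of 13 tested astrocyte genes the median was -0.08 and 1 rose, the opsonin Mfge8 (0.30), which was called in 11 of the 17 fits with 1 library left out; the glutamate transporter Slc1a2 was at -0.19 (adjusted p = 0.129). Of 35 cytosolic ribosomal protein genes 1 rose, Rpl22l1 (0.27), and of 37 nuclear oxidative phosphorylation genes 0 were called by edgeR, DESeq2 or limma-voom, with 1 at an unadjusted p under 0.05. Among all genes tested edgeR called 3.74% higher and 6.12% lower. In the insulin and IGF list of 10 tested genes Igfbpl1, Igfbp7 (-0.37) and Irs1 (-0.28, called in 8 of the 17 fits with 1 library left out) fell, while Igf2 (-0.37, adjusted p = 0.444) and Igf1r (0.18, adjusted p = 0.140) did not pass; the count was 1 without animal 52 of cohort 1 at P22 or animal 84 of cohort 2 at P66. Of 12 ependymal genes 1 rose, Spag6 (0.50); neither Spag6 nor Rpl22l1 was called without animal 52 of cohort 1 at P22 or animal 84 of cohort 2 at P66. Of 15 perineuronal net and matrix genes 3 fell, Adamts4, Tnc and brevican, Bcan (-0.31). The single members of the choroid plexus list with the smallest p were Kl (0.73, adjusted p = 0.278) and F5 (1.01, adjusted p = 0.474).

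The age effect was then set beside that of the other 3 groups of genotype and rearing, which share no library with it. Each group was fitted alone on its own libraries. Of the 260 genes that rose in separated knockout animals 98.1% had a positive value in control knockout, 98.8% in separated wildtype and 99.6% in control wildtype animals. Over all genes tested there, 50.9%, 51.8% and 50.3% had a positive value. Of the genes that fell 97.6%, 99.3% and 99.3% of those tested had a negative value in the same groups, against 49.1%, 48.2% and 49.7% of all genes tested there. Of the rises 62.7%, 76.2% and 78.5% were called too in control knockout, separated wildtype and control wildtype animals, which is 20.9%, 18.9% and 28.7% of the rises called in each. Of the falls 81.5%, 87.2% and 83.3% were called too, which is 35.9%, 31.9% and 38.6% of the falls called in each. Over all genes tested in these groups fitted alone, 25.1%, 31.9% and 23.4% were called in either direction. Genes called in the same direction in all 4 groups numbered 133 higher and 313 lower of 6864 tested in all. In 1 fit of all 69 libraries Igfbpl1 changed by -1.94, -2.0, -2.08 and -1.98 in separated knockout, control knockout, separated wildtype and control wildtype animals, Mkrn3 by -1.78, -1.68, -1.85 and -1.76, and Ugt8a by -1.72, -1.90, -1.85 and -1.77. That fit called 1371 genes in separated knockout (19.2%), 2006 in control knockout (28.1%), 2198 in separated wildtype (30.8%) and 1348 in control wildtype animals (18.9%); group sizes and cohort splits differ, so these counts do not rank the size of the effects.

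The difference between age effects was tested in that fit, and no gene passed by edgeR. Against the mean of the other 3 groups 0 of 7131 genes were called, with 401 at an unadjusted p under 0.05 where 357 are expected, and DESeq2 and limma-voom called 0 as well. The smallest p was that of Epb41, a membrane skeleton protein (difference -0.37 ± 0.0980, adjusted p = 0.814). Against separated wildtype, which differs in genotype, 0 were called with 527 at an unadjusted p under 0.05, and DESeq2 and limma-voom called 0; Usp13, a deubiquitinase, had the smallest p (-0.28 ± 0.0707, adjusted p = 0.608). Against control knockout, which differs in rearing, edgeR and limma-voom called 0 and DESeq2 called 2, with 793 genes at an unadjusted p under 0.05 by edgeR. The counts at an unadjusted p under 0.05 moved with single animals. In the order given they were 270, 345 and 514 without C1-56. Without animal 54 of cohort 1 at P66 they were 668, 805 and 1105. With either animal left out edgeR called 0 genes in each test.

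The genes nearest to the threshold against control knockout are given as values. Bdh2, a cytosolic dehydrogenase, changed by 0.71 with age in separated knockout and by -0.23 in control knockout animals (difference 0.94 ± 0.207, adjusted p = 0.135; 0.0322 by DESeq2). It changed by 0.66 in control wildtype and by 0.09 in separated wildtype animals. Hsph1 changed by 0.21 and -0.06 (difference 0.27 ± 0.0619, adjusted p = 0.135; 0.0287 by DESeq2), Epb41 by -0.44 and 0.08 (difference -0.52 ± 0.120, adjusted p = 0.138), Dkkl1 by 0.60 and -0.91 (difference 1.51 ± 0.363, adjusted p = 0.138) and Dbp by -0.34 and 0.35 (difference -0.69 ± 0.168, adjusted p = 0.138). Without animal 53 of cohort 2 at P66 edgeR called 4 genes in this test, and without animal 12 of cohort 2 at P22 it called 1, Bdh2.

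Some genes were called with age in separated knockout animals and had small values elsewhere, but their differences did not pass. Prss8 changed by -1.61 in separated knockout and by -0.30, -0.13 and -0.35 in control knockout, separated wildtype and control wildtype animals (difference from their mean -1.36 ± 0.580, adjusted p = 0.814). Sema3a changed by -0.88, -0.18, 0.00 and -0.25 in the same order (difference -0.73 ± 0.249, adjusted p = 0.814), and Slc17a6 by -1.06, -0.30, -0.27 and -0.48 (difference -0.71 ± 0.300, adjusted p = 0.814). Of the 685 genes called here 25 had an unadjusted p of 0.05 or more, or the other sign, in each of the other 3 groups fitted alone; an effect that passes in 1 group and not in another is not thereby shown to differ.

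**Figure D5:**
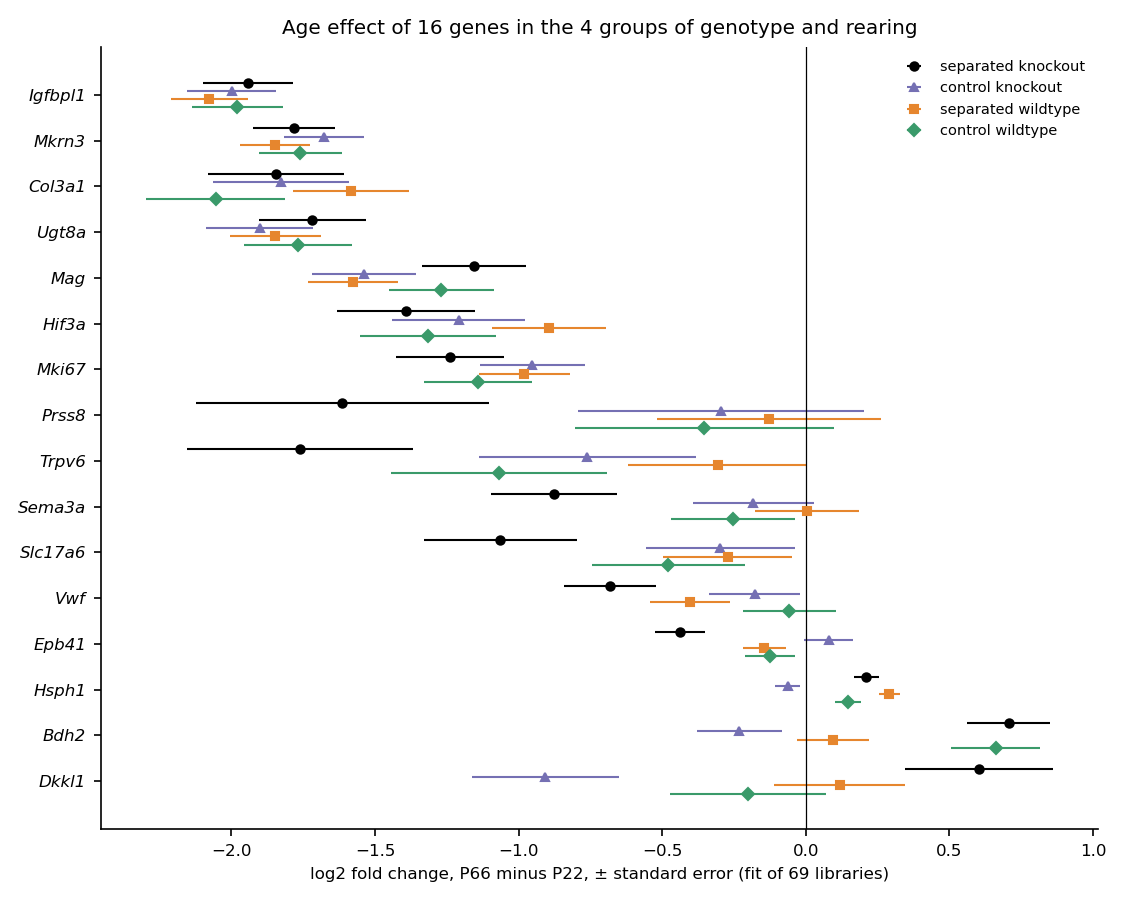
Log2 fold change from P22 to P66 with its standard error for 16 genes in the 4 groups of genotype and rearing, from 1 fit of 69 libraries. Igfbpl1, Mkrn3, Col3a1 and Ugt8a lie between -1.59 and -2.08 in all 4 groups, while Prss8, Sema3a, Slc17a6, Epb41, Bdh2 and Dkkl1 lie apart in separated knockout animals from 1 or more of the others without a difference that passed by edgeR with all libraries. DESeq2 called the differences of Bdh2 and Hsph1 from control knockout.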

How the data were processed

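RNA of the hippocampus was sequenced with 1 library per animal. The authors deposited raw, unnormalized read counts per gene as 1 table. FastQC (version 0.11.4), cutadapt (1.16), limma (3.34.9) and edgeR appear in the submitters' processing notes; how reads were aligned and counted, on which build and with which strand setting is not stated in the labels. The table as used here held 9930 complete protein-coding records from chromosome 1 into the first part of chromosome 8 and 1 broken record, which was left out. Of its identifiers 99.55% are in GENCODE M21, 96.5% at the same position, so positions are on GRCm38. CPM and library totals refer to these records. In 66 pairs of libraries within the 2 groups, a chi-square test of the counts gave 7.77 to 91.85 per degree of freedom, and no pair was taken for 1 library deposited again.

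R 4.3.3 and edgeR 4.0.16 were used (filterByExpr with minimum count 10 and total 15, TMM, quasi-likelihood F test, terms for group and cohort), and genes were called at a Benjamini-Hochberg adjusted p under 0.05 over all genes tested. Differences between age effects were contrasts in 1 fit of 69 libraries. List levels are means of log2 CPM, with a prior count of 2, computed from the deposited counts. Standard errors were taken as the absolute log2 fold change over the square root of F. The comparison and the 32 gene lists were chosen with earlier results of these data known. Named genes were the 15 largest rises and 15 largest falls among called genes with mean log2 CPM of at least 0, up to 6 called members of each list (or the 2 with the smallest p), the 5 with the smallest p of each difference, and 8 genes named for the whole series; other genes were named after their values were seen. Alternatives were DESeq2 1.42.0, voom in limma 3.58.1, RLE normalization, no filter on low counts, a filter of 1 CPM in at least 7 libraries, a fit with no term for cohort, fits of single cohorts, an adjusted p under 0.01, a choroid plexus covariate, all 69 libraries, and leaving out each library. Fitting each other group by itself was added after the data were seen. The test was checked on simulated counts with known changes. Some genes that met the rule for naming are not reported here.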

Additional observations from a re-analysis of the deposited data

Results flagged for a closer look

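In 130 sets of values (32 genes, 32 list levels and the total counts, at each age) a library was marked where its gap to the next was large for the range of its group by Dixon's 95% criterion. Chance marks about 1 in 20 sets, or 6.5 here, and 8 were marked, 7 of them for the same library, C1-56 at P66. In that library Cldn11 was at 364.9 CPM (next 201.5), Mag at 558.5 CPM (next 330.3), Qdpr at 492.9 CPM (next 337.0) and Hbb-bs at 240.8 CPM (next 191.0). Its mean level was the highest for the blood list (7.697 log2 CPM, next 7.344) and the lowest for the GABA receptor list (7.665, next 8.056) and the axon guidance list (6.158, next 6.275). At P22 Eln was at 130.2 CPM in animal 61 of cohort 1, with 81.64 CPM next. The age effects of these genes kept their direction without the marked library.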

How the results depend on the processing

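The number of genes called with age was 685; it stayed within 1.5 times of that with DESeq2 (923), limma-voom (688), RLE normalization (721), no filter (597), a stricter filter (689) and a choroid plexus covariate (718), and was 1061 without a cohort term, 1371 with all 69 libraries in 1 fit, 307 at an adjusted p under 0.01, 147 in cohort 1 alone and 67 in cohort 2 alone. It ran from 394 to 865 with 1 library left out, and 271 of the 685 genes were called in all 17 such fits. The share of higher genes among the calls was 38.0%, and 46.6% without a cohort term. It was 27.4% at an adjusted p under 0.01, 12.9% in cohort 1 alone and 10.4% in cohort 2 alone. For the difference from control knockout DESeq2 called 2 genes and the fit without a cohort term 3, and 0 to 4 were called with 1 library left out; the other 2 differences gave 0 in each of these. Among the genes named for the age effect itself, 3 that were not called changed sign: Hspa5 (0.0368) and Pdia4 (0.04) in cohort 1 alone and Dbp (0.0685) in cohort 2 alone. Of the genes named only for a difference, whose age effects were run only within cohorts, Brinp2 (-0.07 in cohort 1) and Rrp15 (0.04 in cohort 2) also changed sign. The fits of 1 cohort hold 7 and 10 libraries; the cause of the other changes was not tested. No paired analysis was possible because each animal was sampled at 1 age and its number marks no litter or batch shared by the 2 ages. Depth limits genes near 1 CPM, about 14 counts in these libraries.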
